A study of Mus musculus with 20 samples.

Results

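Labelled RNA in mouse embryonic stem cells after 2 h of DRB was compared with labelled RNA in the same line without drug, over all protein-coding genes with a deposited value above 1 read per kb in either condition. This rule took 8602 of the 22556 genes in the table. The cells were E14 wild-type stem cells, an established line, grown in serum medium with leukemia inhibitory factor (LIF) on gelatin. The treated cells received DRB at 100 µM, and new RNA was tagged with 150 µM 4-thiouridine (4sU) in a 10 min pulse before it was captured and sequenced (iTC-seq). Each condition had 2 labelled replicates and 2 unlabelled background replicates, or 8 of the 20 samples of the series. A series title that concerns the recruitment of Polycomb repressive complex 2 to silenced genes frames the comparison, whose question is how far transcription falls within 2 h.

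DRB is a nucleoside analogue that inhibits Cdk9, the kinase of the elongation factor P-TEFb, and related kinases. P-TEFb phosphorylates the RNA polymerase II tail and the pausing factors NELF and DSIF, which lets a polymerase paused near a promoter move into the gene body. A short 4sU pulse marks RNA made during the pulse, introns included, so the reads of a gene body follow transcription more closely than they follow stored mRNA. Replication-dependent histone genes are known for short, intronless transcripts that end in a stem-loop and not in a poly(A) tail.

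The deposited table holds 1 column per condition, so no value here has a replicate error and no difference was tested. Values are in reads per kb of gene after the authors' background step, with negative values set to 0. Multiplying by gene length gave net reads for 8212 of the 8602 genes, and the 390 others have levels only. A gene's level with DRB is given as a percentage of its level without drug, and brackets hold the exact 95% Poisson interval of that ratio, which covers counting error only. The compared genes summed to 1093952 net reads without drug and 284035 with DRB, or 25.96% (25.86 to 26.07). Whether the columns were brought to a common depth is not given in the sources used here, so a lower depth and a lower transcription cannot be told apart in such a sum.

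The stem cell label held against its markers. All 8 stem cell markers were among the compared genes, with a summed level of 307.3 reads per kb without drug and 174.3 with DRB. Of 8 fibroblast and feeder markers, 5 were at 0 without drug, Col1a2, Col3a1, Postn, Lum and Dcn, and the 8 summed to 1.10 and 1.31 reads per kb. A longer fibroblast list of 16 genes summed to 8.63 without drug and 5.29 with DRB, with 9 at 0 without drug, and Fn1, the fibronectin gene, gave 7.04 of the first sum. The 6 primitive endoderm and trophoblast markers summed to 0.210 and 0.149, with Sox17, Cdx2 and Hand1 at 0 without drug. The longer list of these lineages, 21 genes in the table, summed to 24.5 and 6.80, with Tfap2c, a transcription factor gene, at 9.52 and 0.554 and Sparc, a matrix protein gene, at 6.02 and 1.68. Neural markers summed to 18.98 and 5.56, of which Tubb3, a neuronal tubulin gene, gave 11.1 reads per kb without drug and Dcx gave 0.

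Most genes were lower with DRB. With a difference of at least 1 on log2(value + 1) as the size rule, 5800 of 8602 genes were lower, or 67.4%, 193 were higher, or 2.24%, and 2609 lay within that size. The median level was 3.53 reads per kb without drug and 0.788 with DRB, and the median log2 difference was -1.29. Among the 8480 genes with a value above 0 without drug, the median share left was 20.0%, with quartiles at 9.50% and 36.4%. If the columns were scaled to equal medians, which sets 22.3% of the level without drug to no change, 1762 genes would count as lower and 1383 as higher, and 26 of the 47 lists with at least 4 compared genes would have a median above no change. Directions below are those of the unscaled columns. Counts of higher genes below stand beside 2.24% over all genes, and counts at or above no drug beside 6.85%. Genes named within a list are mostly its extremes, by level without drug, net reads with DRB or share left, so differences between them restate that choice. Membership itself leans on the column where a gene is high, since 4842 genes passed only without drug, 276 only with DRB and 3484 in both. Just inside the limit, Cep97 was at 1.00 read per kb without drug and 0.143 with DRB, and just outside it Abca1 was at 0.999 and 0.124.

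Genes with at least 50 net reads without drug, 4887 in number, give ratios with less counting error. Their median was 19.0%, with quartiles at 10.6% and 31.0%, and the 5th and 95th percentiles were 2.93% and 63.3%. In this group 127 genes, or 2.6%, were listed at 0 with DRB, and 73 genes, or 1.49%, were at or above their level without drug. Over all 8602 genes these shares were 9.25% and 6.85%. The minimum of 50 is on the column without drug alone, so it favours genes that are high there. By class, 1007 of the 4887 were above 0 but under 10%, 2015 between 10% and 25%, 1274 between 25% and 50%, and 391 between 50% and 100%.

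**Figure D1:**
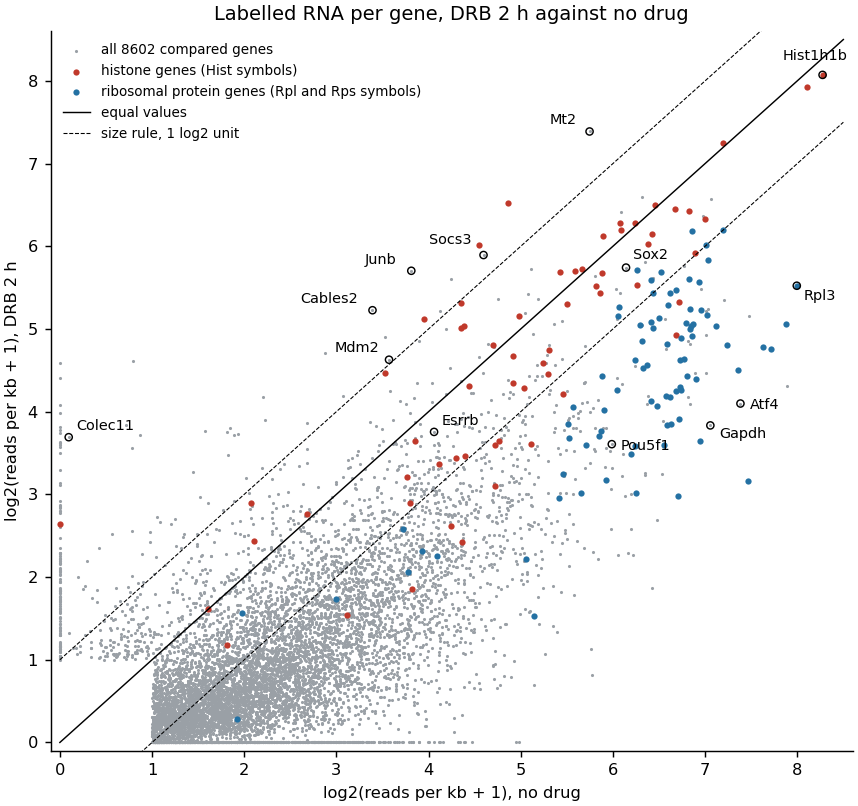
Each point is 1 of the 8602 genes, with log2(reads per kb + 1) without drug on the horizontal axis and with DRB on the vertical axis; red points are histone genes, blue points ribosomal protein genes, the solid line marks equal values and the dashed lines the size rule. The cloud lies below the solid line with a median difference of -1.29, while Hist1h1b, at 308.6 and 268.2 reads per kb, lies close to it and Mt2, Junb, Cables2 and Mdm2 lie above it.

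The genes with the highest levels changed rank between the columns. Each column was ranked only over genes whose net reads there were known and numbered 50 or more. Without drug the 10 highest genes so ranked were Hist1h1b, Hist1h1a, Rpl3, 1500012F01Rik, Rps12, Rps9, Rpl12, Rabggtb, Rplp1 and Atf4. With DRB they were Hist1h1b, Hist1h1a, Mt2, Ier2, Mcl1, Hist1h1e, Hist1h4d, Hist1h1c, Mt1 and Tubb5. The DRB ranking left out a replication-dependent H4 gene at 151.0 reads per kb and an H2B gene at 85.1. The linker histone genes Hist1h1b and Hist1h1a led both rankings, and no ribosomal protein gene was among the 10 ranked highest with DRB. Mcl1, which encodes an anti-apoptotic Bcl2 relative, was at 132.9 reads per kb without drug and 93.8 with DRB, or 70.6% (62.1 to 80.2).

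Replication-dependent histone genes held most of their signal. Of 68 in the table, 61 were compared, with 11 lower, 4 higher and 46 within the size rule. These shares of 18.0% lower and 6.56% higher stand against 67.4% and 2.24% over all genes. After scaling to equal medians none was lower and 49 were higher. They gave 2651 net reads without drug and 2164 with DRB, or 81.6% (77.1 to 86.4), with a median of 83.4% per gene. In the unscaled columns 23 of 61, or 37.7%, were at or above no drug, against 6.85% over all genes. The 5 protein families lay close together in median, at 87.6% for H1, 63.0% for H2A, 75.5% for H2B, 74.4% for H3 and 85.6% for H4. In summed net reads the 6 H1 genes gave 1094 and 1045, or 95.5% (87.7 to 104.1), and the core histone families 69.6% to 74.2%. The H1 sum includes Hist1h1e, which went from 63 to 204 net reads and so raises it. The sum without Hist1h1e was not computed. Copies of these genes are near-identical in sequence, so reads could have been split between copies in the authors' counting.

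The 5 somatic H1 genes, which encode the linker histones of dividing cells, show how this list varied. Hist1h1a was at 274.8 reads per kb without drug and 242.6 with DRB, or 88.3% (71.9 to 108). Hist1h1b was at 308.6 and 268.2, or 86.9% (71.5 to 105.5), and Hist1h1c at 101.3 and 86.6, or 85.4% (67.4 to 108.2). Hist1h1d was at 57.1 and 42.1, or 73.9% (63.7 to 85.5). Hist1h1e differed from the other 4, at 28.1 without drug and 91.0 with DRB, or 324% (243 to 437). Another protein-coding gene overlaps Hist1h1e on its strand, and whether reads of that gene add to this value was not tested. The last 120 bases before the annotated start of each are printed because this group led both columns. They are from RefSeq on GRCm38.p6, each read 5′ to 3′ on the gene's strand, with capitals for the letters TATAAA in the last 60 bases and for CCAAT, read as ATTGG on the other strand, and AAACACA, the H1 box, in all 120.
Hist1h1a, chr13:23763548-23763667, plus strand: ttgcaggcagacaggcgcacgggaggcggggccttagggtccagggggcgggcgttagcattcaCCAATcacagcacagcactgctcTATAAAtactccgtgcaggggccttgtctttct
Hist1h1b, chr13:21780626-21780745, minus strand: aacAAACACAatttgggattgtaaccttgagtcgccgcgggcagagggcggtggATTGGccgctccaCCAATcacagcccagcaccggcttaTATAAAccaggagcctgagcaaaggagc
Hist1h1c, chr13:23738687-23738806, plus strand: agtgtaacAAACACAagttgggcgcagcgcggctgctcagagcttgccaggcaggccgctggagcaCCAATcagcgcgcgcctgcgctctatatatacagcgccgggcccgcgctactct
Hist1h1d, chr13:23554912-23555031, plus strand: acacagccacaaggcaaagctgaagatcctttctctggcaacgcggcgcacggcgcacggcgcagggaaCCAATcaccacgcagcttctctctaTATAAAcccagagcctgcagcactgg
Hist1h1e, chr13:23622559-23622678, minus strand: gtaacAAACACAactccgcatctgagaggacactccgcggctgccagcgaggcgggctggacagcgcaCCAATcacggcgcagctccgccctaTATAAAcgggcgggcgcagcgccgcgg

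All 5 of these windows hold a CCAAT that starts 51 to 56 bases before the start. TATAAA stands 26 to 33 bases before the start in 4 of them and is not in the Hist1h1c window. Hist1h1e, the gene that was higher with DRB, has the same 3 motifs as Hist1h1b, which was not. Over the 49 compared histone genes with a promoter in the table, 32.7% held TATAAA in the last 60 bases, 75.5% held CCAAT and 12.2% AAACACA in the last 120, on either strand. Over all 16676 promoters matched, the shares were 4.52%, 24.5% and 2.14%.

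Replacement histone genes, which are typically but not all spliced and polyadenylated, stood lower. Of 10 compared, 7 were lower, or 70% against 67.4% over all genes, and 1 higher, and they gave 27.5% (23.9 to 31.4) of net reads. H3f3b, which encodes the replacement histone H3.3, was at 14.05 and 13.4 reads per kb, while H2afy, which encodes macroH2A1, was at 3.698 and 0.351. H2afx, the gene of the DNA damage histone H2AX, has 1 exon and no intron. It was at 80.4 and 55.3 reads per kb, or 68.8% (50.6 to 93.2).

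Genes known for rapid induction by stress or signals were spread from far below to above their level without drug. The metallothionein genes, whose products bind zinc and copper, were both above it. Mt2 lies on chromosome 8 at 94172664 to 94173568 of GRCm38, and its level was 52.7 reads per kb without drug and 166.5 with DRB, or 316% (229 to 444). Mt1, 5.51 kb away, was at 67.2 and 84.1, or 125% (93.0 to 169). Only the interval of Mt2 lies wholly above 100%.

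Among 24 compared AP-1 and immediate early genes, 14 were lower, 2 higher and 8 within the size rule. The share lower was 58.3% against 67.4% over all genes, and the share higher 8.33% against 2.24%. Junb, which encodes an AP-1 subunit, was at 13.1 reads per kb without drug and 51.1 with DRB, from 48 and 188 net reads. Ier2, an immediate early gene, was at 78.9 and 95.3, or 121% (94.2 to 155). Fosl1, which encodes another AP-1 subunit, was at 8.01 and 0.121 reads per kb, from 66 net reads to 1. The list summed to 41.8% (38.4 to 45.5) of net reads, and to 32.6% without Junb.

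The 13 compared genes of LIF signalling, which sustains the stem cell state through STAT3, were lower in 6, or 46.2% against 67.4% over all genes. They were higher in 2, or 15.4% against 2.24% over all genes. Socs3, which encodes the feedback inhibitor of this pathway, was at 23.2 reads per kb without drug and 58.5 with DRB, or 252% (197 to 325). Pim3, a kinase gene, was at 34.0 and 29.7, or 87.5% (66.7 to 115). Ptpn11, which encodes the phosphatase Shp2, was at 4.17 and 0.526, or 12.6% (8.44 to 18.2). The list summed to 71.9% (65.9 to 78.5), or 57.1% without Socs3.

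In the FGF and ERK list, 18 of 25 genes were lower, or 72% against 67.4% over all genes, and 1 was higher. Fgf4, the ligand gene, was at 112 reads per kb without drug and 17.1 with DRB, or 15.3% (13.6 to 17.2). Spry2, which encodes an inhibitor of receptor signalling, was at 32.0 and 35.7, or 112% (89.3 to 139). Of 22 Id, BMP and Nodal genes, 14 were lower, or 63.6%, and none higher. Gdf3, a ligand gene, was at 43.6 and 4.91, or 11.3% (6.99 to 17.4), while Smad7, which encodes an inhibitory Smad, was at 19.4 and 19.7, or 101.8% (90.4 to 114.7). Without Smad7 the list went from 38.8% to 24.99% of net reads.

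Mdm2, which encodes the ubiquitin ligase that removes p53 and is itself a p53 target, was at 10.9 reads per kb without drug and 23.7 with DRB, or 218% (187 to 255). In the DRB 5 h column, which shares the no-drug column, it was at 31.8 reads per kb, whereas Mt2, Junb and Socs3 were at 20.0, 5.44 and 0. Among 24 compared p53 targets 14 were lower, or 58.3% against 67.4% over all genes, and 1 was higher, and the list summed to 52.2% (49.4 to 55.2), or 40.6% without Mdm2. Bax, which encodes a pro-apoptotic Bcl2 relative, was at 38.2 and 9.61 reads per kb, and Xpc, a DNA damage recognition gene, at 3.88 and 0.0376. Trp53 itself was at 27.5 and 4.95, or 18.0% (13.3 to 23.9). Usp7, a ubiquitin protease gene of the same circuit, was at 15.1 and 5.83, or 38.6% (35.04 to 42.4).

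**Figure D2:**
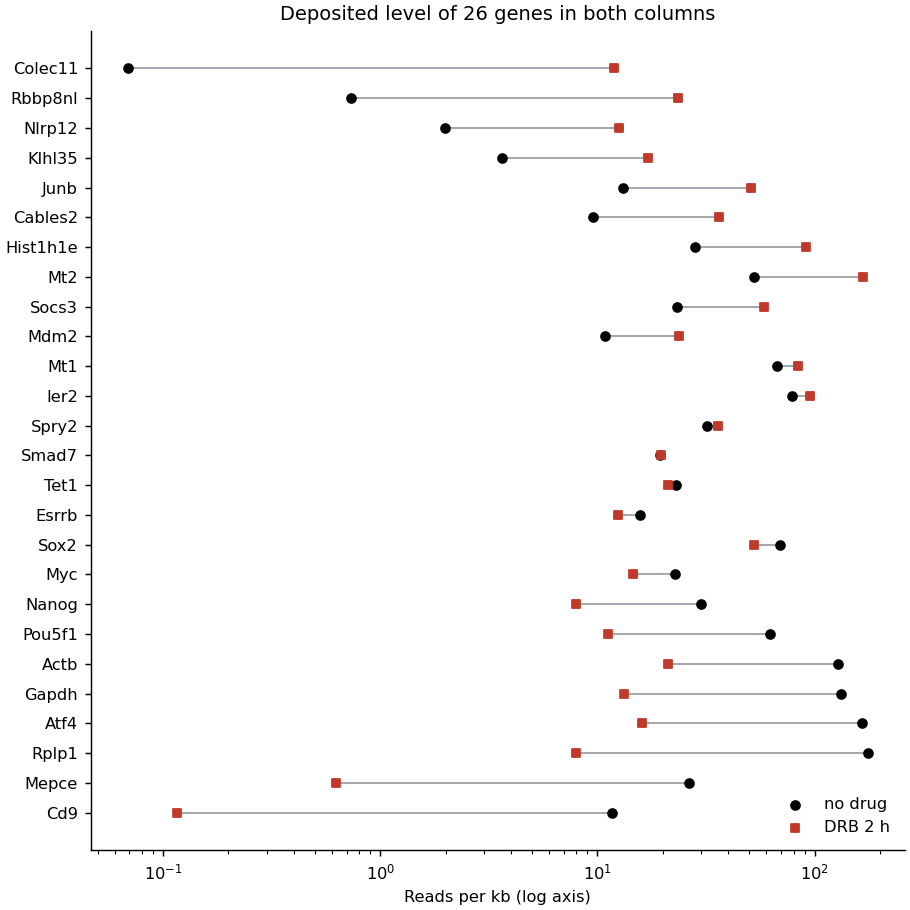
Deposited levels of 26 genes in reads per kb on a log axis, with black circles for no drug, red squares for DRB 2 h and 1 row per gene. Genes from Colec11 to Smad7 have the square to the right or level with the circle, and genes from Tet1 to Cd9 have it to the left, by little for Tet1 and Esrrb and by far for Atf4, Mepce and Cd9.

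Pluripotency factor genes differed widely among themselves. Of 28 compared, 17 were lower, or 60.7% against 67.4% over all genes, 1 higher and 10 within the size rule, with a median of 37.9% and 48.0% (46.4 to 49.7) of net reads. Esrrb, an orphan nuclear receptor gene of the naive network at 86361117 to 86521628 of chromosome 12, was at 15.7 reads per kb without drug and 12.5 with DRB, or 79.8% (75.2 to 84.6). Nr5a2, another nuclear receptor gene, was at 3.73 and 0.368, or 9.86% (7.04 to 13.5). Sox2, which has no intron, was at 69.6 and 52.5, and Pou5f1, its spliced partner, at 62.5 and 11.2. These 2 partners had similar levels without drug. Trim71, an RNA-binding stem cell gene outside the list with 2211 and 1538 net reads, was at 69.6% (65.1 to 74.3).

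Genes of chromatin regulators varied widely within their families. Tet1, which encodes the main stem cell enzyme that oxidises methylcytosine, was at 23.1 reads per kb without drug and 21.2 with DRB, or 91.8% (86.3 to 97.6), from 2181 and 2002 net reads. Gadd45a, a stress gene linked to DNA demethylation, was at 42.4 and 2.54, and Mbd2, a reader of methylated DNA, was at 1.02 and listed at 0. Without Tet1 the 15 compared DNA methylation and Tet genes went from 58.7% to 28.2% of net reads, with 10 lower, or 66.7% against 67.4% over all genes. Trim28, which encodes the corepressor of KRAB zinc finger proteins, was at 85.4 and 48.1, or 56.3% (52.97 to 59.8), and without it its list of 22 went from 38.9% to 25.8%. In that list Ehmt2, an H3K9 methyltransferase gene, was at 3.34 and 4.36, and Mphosph8, a reader of H3K9 methylation, at 3.19 and 0.

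Polycomb genes stood near the median of all genes. Of 11 PRC2 subunit and cofactor genes 7 were lower, or 63.6% against 67.4% over all genes, with 25.8% (24.1 to 27.7) of net reads, and of 13 PRC1 genes 10 were lower, or 76.9%, with 22.6% (20.7 to 24.6). Rbbp7, a histone chaperone gene of PRC2, was at 5.35 and 0.428 reads per kb, and Rybp, a PRC1 gene, at 5.11 and 0.255. Pcgf2, another PRC1 gene, was at 10.3 and 5.91, or 57.5% (42.1 to 78.0). Of 44 chromatin remodelling genes 29 were lower, or 65.9%, and none higher, with Baz1b, an Iswi-family partner, at 4.49% (2.94 to 6.603), Arid1a, a BAF subunit, at 76.0% (68.8 to 84.0) and Ruvbl2, an ATPase of Ino80, at 105% (83.3 to 131).

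The list of DRB's own target complex had a share lower of 73.7%, against 67.4% over all genes. Of 38 compared genes of P-TEFb, its 7SK RNA partner and elongation, 28 were lower and 1 higher, with 24.8% (23.5 to 26.2) of net reads. Cdk9, the kinase gene, was at 16.7 reads per kb without drug and 3.98 with DRB, or 23.8% (15.3 to 35.9), and Ccnt1, its cyclin T1 partner, at 10.5 and 3.88, or 37.1% (30.0 to 45.7). Supt6, which encodes the elongation factor Spt6, was at 5.22 and 5.10, while Mepce, the capping enzyme of 7SK RNA, was at 26.4 and 0.624. Mepce and Supt6, in 1 pathway, stood at 2.36% and 97.6%.

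RNA polymerase II subunit genes were lower in 10 of 13, or 76.9% against 67.4% over all genes, and higher in none, against 2.24%. Polr2a, which encodes the largest subunit, was at 8.89 reads per kb without drug and 5.48 with DRB, or 61.6% (49.4 to 76.7), from 219 and 135 net reads. Polr2f, a small shared subunit gene, was at 12.8 and 0.0959, from 133 net reads to 1, and Polr2l at 25.1 and 0.917. Of 15 RNA polymerase I and III subunit genes 10 were lower, with Polr3e at 60.7% (51.1 to 71.9) and Polr3g listed at 0 from 92 net reads.

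Genes that work with the polymerase at promoters and gene ends gave less than the 25.96% of net reads over all genes, while their shares lower ranged from 62.5% for Integrator and 66.7% for Mediator to 85.2% for cleavage and polyadenylation, against 67.4% over all genes. Integrator genes, whose products cleave nascent RNA, gave 12.97% (10.9 to 15.3) of net reads in 8 genes, 5 of them lower, with Ints6 at 3.03% (1.37 to 5.83). The list of TFIID and SAGA TAF genes gave 20.9% (19.2 to 22.7) with 18 of 22 lower, and Mediator genes 21.02% (19.4 to 22.7) with 20 of 30 lower. The TAF list also held Taf1c and Taf1d, which are named as TAFs but belong to an RNA polymerase I factor, and it gave 17.4% without Taf1d. Cdk8, the Mediator kinase gene, was at 2.51 reads per kb without drug, from 180 net reads, and listed at 0 with DRB. Cleavage and polyadenylation genes gave 19.2% (17.7 to 20.8) with 23 of 27 lower, and Nudt21, which encodes a subunit of cleavage factor I, was listed at 0 from 110 net reads. No gene of these 4 lists was higher by the size rule, against 2.24% over all genes. In lists this short, none is near that share.

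Splicing genes were lower in most members, with shares of 90.6% for SR and hnRNP genes and 83.1% for core spliceosome genes against 67.4% over all genes. SR and hnRNP genes gave 23.5% (22.3 to 24.7) of net reads with 29 of 32 lower, and core spliceosome genes 27.9% (26.7 to 29.2) with 49 of 59 lower. Prpf8, which encodes the scaffold at the spliceosome's core, was at 10.3 reads per kb without drug and 12.8 with DRB, or 125% (105 to 149). Snrpf, a small Sm protein gene, was at 14.5 and 0.300, from 97 net reads to 2, and Hnrnpa2b1, an RNA-binding protein gene, at 35.8 and 1.69, or 4.72% (2.67 to 7.78). Nuclear pore genes gave 23.96% (22.5 to 25.5) with 23 of 27 lower, and Nup210 was at 3.60% (1.95 to 6.11).

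Cytosolic ribosomal protein genes had the highest median level among lists with more than 3 compared genes, 93.7 reads per kb without drug, and 75 of 86 were lower, or 87.2% against 67.4% over all genes, and none higher or listed at 0. They gave 30.0% (29.3 to 30.6) of net reads with a median of 26.6%. The sum was 26.05% without Rps14, of the small subunit, beside 25.96% over all genes. Rpl3, of the large subunit, was at 254.0 reads per kb without drug and 45.0 with DRB, or 17.7% (16.4 to 19.1), from 4287 and 759 net reads. Rps28, of the small subunit, was at 75.7 and 51.5, or 68.0% (58.3 to 79.3), and Rplp1, a stalk protein gene, at 175.4 and 7.97. Many ribosomal protein genes have processed pseudogene copies, to which reads may have been assigned.

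Other translation genes had shares lower from 67.9% for the synthetases to 85.3% for ribosome biogenesis, against 67.4% over all genes. Initiation factor genes gave 28.1% (26.9 to 29.2) with 37 of 50 lower, elongation factor genes 32.3% (30.3 to 34.3) with 10 of 13 lower, and aminoacyl-tRNA synthetase genes 29.2% (27.1 to 31.5) with 19 of 28 lower. Eif4e, the cap-binding protein gene, was at 5.13 and 0.287 reads per kb, or 5.59% (2.51 to 10.9), while Eif3l, a scaffold subunit gene, was at 17.6 and 13.8, or 78.6% (66.7 to 92.6). Nucleolar ribosome biogenesis genes gave 23.2% (22.4 to 24.1) with 64 of 75 lower, and Ddx54, an RNA helicase gene, was at 10.3 without drug, from 168 net reads, and listed at 0 with DRB. Mitochondrial ribosomal protein genes gave 27.3% (25.7 to 29.1) with 51 of 71 lower and 1 higher, and respiratory chain and ATP synthase genes 32.5% (30.8 to 34.3) with 55 of 78 lower and 1 higher. Atp5g1 and Atp5g2, whose products are the same ring subunit of ATP synthase, stood at 1.01% (0.0253 to 5.76) and 70.1% (55.9 to 87.7).

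Genes of protein folding and breakdown had shares lower of 55.6% for the chaperonin, 67.2% for heat shock genes and 73.8% for the proteasome, against 67.4% over all genes. The 9 compared genes of TRiC, which folds actin and tubulin, gave 40.9% (37.7 to 44.3) with 5 lower. Those with at least 50 net reads without drug ran from Cct7 at 22.9% (17.8 to 29.1) to Tcp1 at 110.6% (82.9 to 147.8). Heat shock and co-chaperone genes gave 26.8% (25.5 to 28.1) with 39 of 58 lower and none higher, with Hsp90ab1 at 129.7 and 36.8 reads per kb and Hspa8 at 93.7 and 33.9. Proteasome genes gave 26.95% (25.3 to 28.7) with 31 of 42 lower and 1 higher.

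Metabolic and stress-response genes had shares lower of 84.2% for glycolysis, 83.3% for cholesterol synthesis and 69.2% for the unfolded protein response, against 67.4% over all genes. Glycolysis genes gave 16.3% (15.4 to 17.3) with 16 of 19 lower, 1 higher and 2 at or above no drug. Those with at least 50 net reads without drug ran from Pgam1 at 31.9 and 2.06 reads per kb to Slc2a3, a glucose transporter gene, at 7.06 and 2.71. Gapdh, a glycolytic enzyme gene often used as a reference, was at 132 and 13.3. Cholesterol synthesis genes gave 28.2% (26.4 to 30.1) with 20 of 24 lower, and Insig1, a sterol sensor gene, was at 31.8 and 3.56. Atf4 and unfolded protein response genes gave 22.4% (20.7 to 24.1) with 18 of 26 lower. Atf4 itself was at 166 and 16.1 reads per kb, or 9.72% (6.77 to 13.6), while Hspa5, the chaperone gene of the endoplasmic reticulum, was at 24.99 and 12.9.

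Cell division and cytoskeleton genes had shares lower of 85% for mitotic genes, 81.4% for licensing, 76.5% for actin and 66.7% for tubulins, against 67.4% over all genes. Mitotic cyclin, kinase and kinetochore genes gave 19.1% (17.9 to 20.3) with 34 of 40 lower, among them Mad2l1, a spindle checkpoint gene, which had 12.2 reads per kb without drug and was listed at 0 with DRB. Ccnb2, a mitotic cyclin gene, was at 4.40 and 3.82, or 86.9% (59.0 to 128). MCM and origin licensing genes gave 24.7% (23.4 to 25.99) with 35 of 43 lower, and Mcm4 was at 61.6% (44.0 to 85.6) against 2.81% (0.901 to 6.68) for Mcm9. Tubulin genes gave 32.2% (29.0 to 35.8), or 13.1% without Tubb5, which was at 125.1 and 81.3 reads per kb, against 37.4 and 1.10 for Tuba1c. Actin and SRF target genes gave 25.5% (24.2 to 26.9) with 26 of 34 lower, with Actb, the beta-actin gene, at 128 and 21.2.

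**Figure D3:**
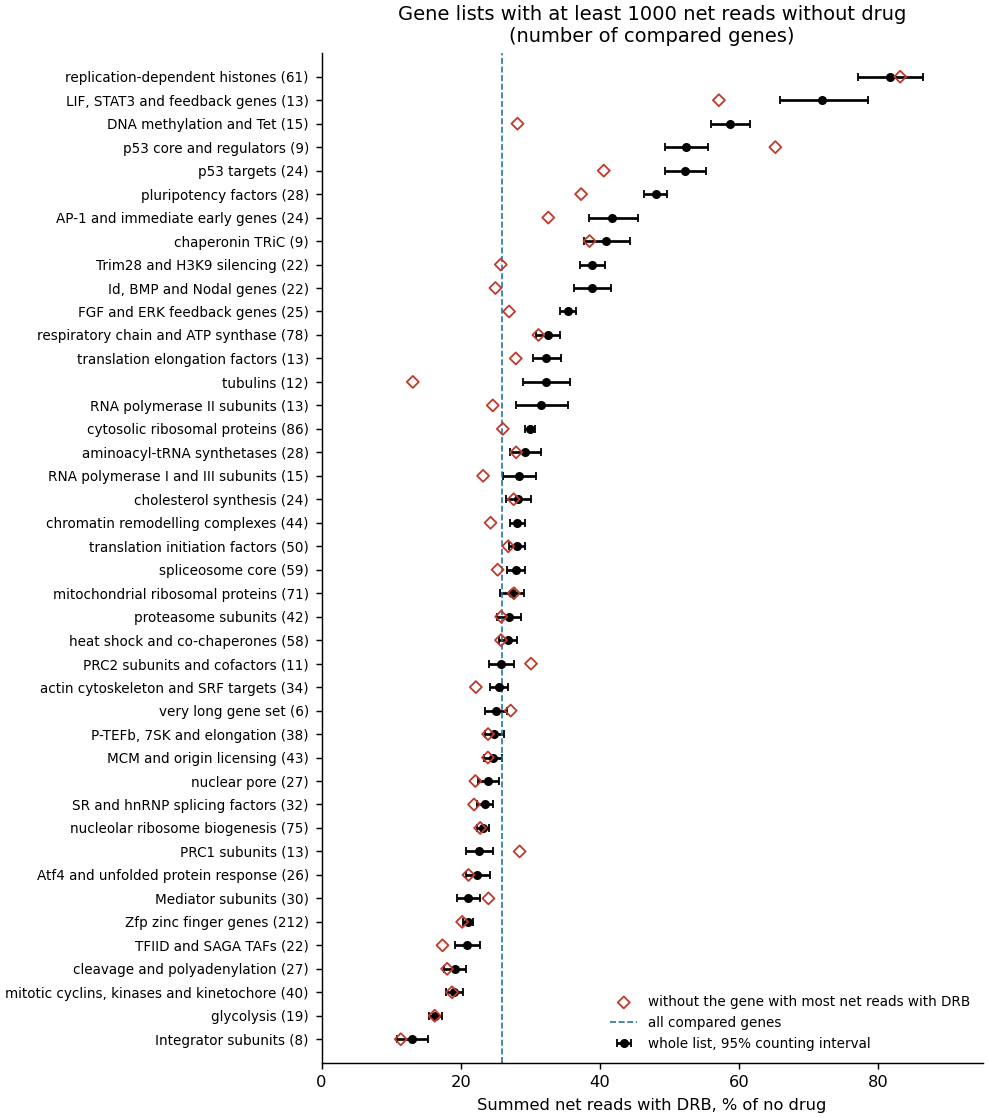
Summed net reads with DRB as a percentage of no drug for each gene list with at least 1000 net reads without drug, as black points with 95% counting intervals, and the same without the gene with most net reads with DRB as open diamonds; the dashed line marks all compared genes at 25.96%. Replication-dependent histones stand highest at 81.6% and Integrator subunits lowest at 12.97%, and the diamond of DNA methylation and Tet genes falls to 28.2%.

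Zinc finger genes with Zfp symbols, many of which encode KRAB repressors that act through Trim28, formed the largest list. Of 212 compared, 168 were lower, or 79.2% against 67.4% over all genes, and 1 higher, the median was 12.6% against 20.0% over all genes, and 34 were listed at 0 with DRB. After scaling to equal medians 75 were lower and 17 higher. Zfp42, the stem cell marker Rex1, was at 50.3 and 19.3 reads per kb, and Zfp13 at 2.75 and 2.58, while Zfp935 was at 1.37, from 136 net reads, and listed at 0. The median level of the list without drug was 2.73 reads per kb, below the 3.53 of all genes. Over all genes, 16.8% of those at 1 to 2 reads per kb and 9.59% of those at 2 to 5 were listed at 0. Few or no genes of silent programmes were compared, with 4 developmental CpG-island targets, 6 olfactory receptors, 1 gene of the 2-cell-like list and no Hox gene. Pax6, a developmental regulator gene, was at 4.71 and 0.813.

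The 12 highest ratios among genes with at least 50 net reads with DRB favour low values without drug, since 7 of the 12 were at most at 1 read per kb there and entered the comparison only through the DRB column. Colec11, a collectin gene (chromosome 12, 28594173 to 28623377), was at 0.0687 reads per kb without drug and 11.9 with DRB, from 2 and 347 net reads. Rbbp8nl was at 0.736 and 23.5, from 9 and 287 net reads, and Fcgrt, the neonatal Fc receptor gene, at 0.646 and 13.3, from 7 and 144. Vwce was at 0.226 and 3.58 reads per kb, and Csad, an enzyme gene of taurine synthesis, was listed at 0 without drug and at 2.49 with DRB. All 5 of these had fewer than 10 net reads without drug. Nlrp12, an innate immune receptor gene, Klhl35 and Chd5, a chromatin remodeller gene, had 56, 29 and 24 net reads without drug and 356, 137 and 81 with DRB. Ifi35 and 1700001P01Rik had 10 and 12 net reads without drug and 50 and 54 with DRB.

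Of the 193 genes higher by the size rule, 122 were listed at 0 without drug, which is every compared gene listed at 0 there, since such a gene enters only through a value above 1 with DRB. Of the 162 with net reads, 118 had fewer than 20 with DRB and 21 had at least 50. Their median length was 2.19 kb, and 69 of the 193 were single-exon genes. Most of these genes were short and had few reads.

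At the other end, 796 genes were listed at 0 with DRB, of which 396 had fewer than 20 net reads without drug and 39 had at least 100. The 12 with most net reads without drug were 4732471J01Rik, D730045B01Rik, Bhlhb9, Ninl, Spata5, Ppp2r3d, Rreb1, Mapre1, Tnrc6a, Adam1a, Cdk8 and Fads2, from 494 down to 180. Mapre1, which encodes the microtubule end-binding protein EB1, was at 6.90 reads per kb without drug. Tnrc6a, a scaffold gene of microRNA silencing, was at 2.79, and Fads2, a fatty acid desaturase gene, at 4.82. No fold is given for these, since a listed 0 can stand for a negative value before it was set to 0.

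The lowest genes above 0 had 1 to 4 net reads with DRB. Cd9, which encodes a tetraspanin of the stem cell surface, was at 11.7 reads per kb without drug and 0.116 with DRB, or 0.993% (0.269 to 2.56), from 403 net reads to 4. Uchl1, a ubiquitin hydrolase gene, was at 18.3 and 0.0898, from 204 net reads to 1, and Tada2a, a SAGA and ATAC adaptor gene, at 5.43 and 0.0197, from 275 to 1. Hmgb1, which encodes an abundant chromatin protein, stood out for depth, with 2700 net reads without drug and 80 with DRB, or 2.96% (2.34 to 3.701). Jarid2, with 2192 and 491 net reads, and Zmynd8, with 2462 and 469, were among the 10 largest falls in net reads.

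The share left differed between length classes. Genes under 2 kb gave 51.1% (49.1 to 53.1) of net reads, those of 2 to 5 kb 29.5% (29.0 to 30.1), and the classes between 5 and 50 kb 28.7%, 26.8% and 26.3% in order of length. Genes of 50 to 100 kb and 100 to 200 kb gave 23.1% (22.8 to 23.3) and 23.6% (23.3 to 23.9), and those over 200 kb 27.2% (26.8 to 27.7). Over genes with at least 50 net reads the medians were 36.6% under 2 kb, 21.7% at 2 to 5 kb, 16.7% at 50 to 100 kb, 16.8% at 100 to 200 kb and 26.1% over 200 kb. The share lower was 52.5% under 2 kb, 69.8% at 20 to 50 kb and 47.8% over 200 kb. The class under 2 kb includes replication-dependent histone genes, which held most of their signal. Without Hist1h1b, its gene with most net reads with DRB, this class gave 49.9%. Its value without all histone genes was not computed, so length and histone genes are not separated in it. Short genes have few reads each, and 28.1% of those under 2 kb were listed at 0 with DRB while 30.5% were at or above no drug, against none of 69 genes over 200 kb in either state. Of the 135 short genes at or above no drug, 73 entered only through the DRB column, and of the 31 with at least 50 net reads without drug 5, or 16.1%, were at or above.

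**Figure D4:**
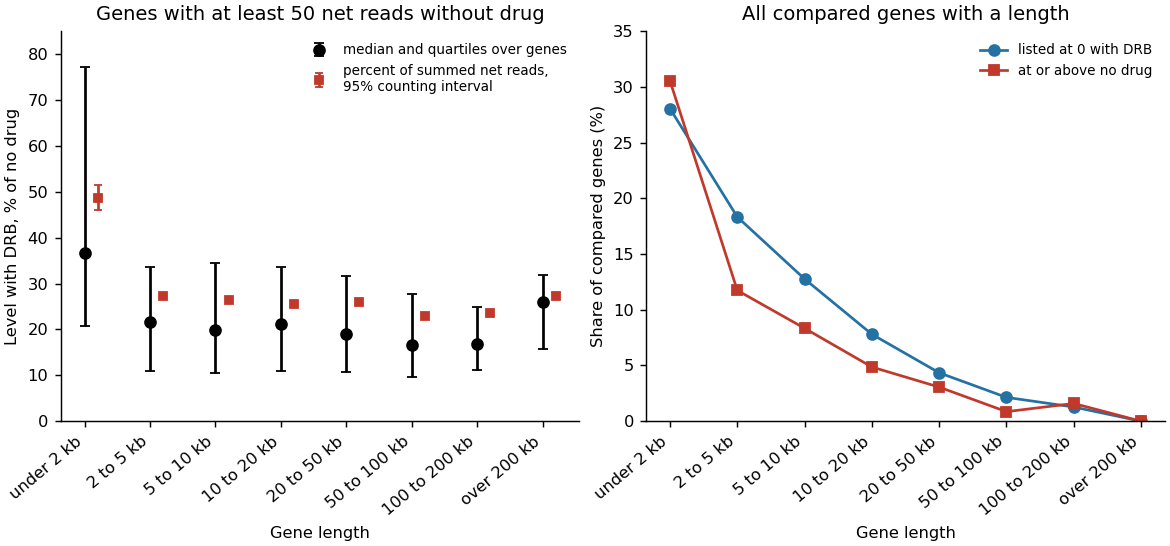
Left, level with DRB as a percentage of no drug by gene length class, for genes with at least 50 net reads without drug, with black circles and bars for the median and quartiles over genes and red squares for summed net reads with their 95% counting interval. Right, the share of all compared genes with a length that were listed at 0 with DRB (blue) or at or above no drug (red), from 28.1% and 30.5% under 2 kb to none over 200 kb. The class under 2 kb includes replication-dependent histone genes.

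The longest class rests in part on a pair of annotated spans that enclose other genes. Gm20388, a read-through locus of 4.43 Mb on chromosome 8, had 11609 and 3143 net reads, and the 54 compared genes within or across it summed to 11267 and 2687. Those 54 were 26 on its strand, with 5758 net reads without drug, and 28 on the other, with 5509, so its total is near the sum over both strands. Fgfr2, with an annotated span of 2.96 Mb on chromosome 7, had 7440 and 3301 net reads, of which the overlapping Ctbp2, a corepressor gene at 36.6 and 20.5 reads per kb, could give 5001 and 2810. Without Gm20388 and Fgfr2 the class over 200 kb gave 24.6% (24.1 to 25.1), with a median of 25.2%, and the FGF and ERK list went from 35.4% to 26.95%. All compared genes gave 25.8% without them.

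Single-exon genes had the highest median share left of the classes by exon number. Over all 391 it was 25%, with 30.7% listed at 0 with DRB, and over the other classes 14.3% to 21.6%. The 29 single-exon genes with at least 50 net reads without drug had a median of 55.6% and gave 72.2% (68.3 to 76.3) of net reads. Without histone genes 17 remained, with a median of 36.9% and 53.5% (48.7 to 58.6) of net reads, or 46.8% without Ier2. Genes with 2 exons had a median of 15.4%, and the classes from 3 exons upward 18.5% to 20.8%. Hexim1, the single-exon gene of the P-TEFb inhibitor, was at 18.8 and 4.12 reads per kb, or 21.9% (11.3 to 39.4), so not every single-exon gene was high. The classes by exon number, by level and by small RNA genes below were chosen after values had been seen.

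Above 1 read per kb without drug, the median share left was higher in classes of higher level. From 1 to 2 reads per kb up to over 50 reads per kb, the class medians were 17.5%, 18.9%, 20.5%, 21.1%, 22.03% and 27.4%. The share listed at 0 went from 16.8% to none over the same classes, as read numbers grew. The lowest class, at most 1 read per kb, held 276 genes that entered only through the DRB column, and its median was 254%. Classes were cut on the value by which each share is divided, so class and share are not independent.

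Genes that carry small RNA genes in their span were looked at because small RNA reads could add to the span. The 173 compared genes with a snoRNA or scaRNA gene on their strand had a median level of 10.4 reads per kb without drug, a median of 21.7% and 25.5% (25.05 to 25.9) of net reads, close to the 25.9% of genes with neither kind. The 16 genes with a tRNA gene in their span, which RNA polymerase III transcribes, had a median of 70.6%. Of these 16, 4 were lower, or 25%, none higher and 5, or 31.25%, at or above no drug. Among genes with neither kind these shares were 67.3%, 2.28% and 6.88%. Without Gm20388, which holds most of their reads, the genes with a tRNA gene gave 41.4% (38.8 to 44.1). The part of tRNA reads in this was not tested.

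The presence of a neighbouring gene varied with the share left and was not tested. Another protein-coding gene lay within 5 kb or overlapped for 75.3% of the 73 genes at or above 100%, against 65.0% of all 4887 genes with at least 50 net reads, 58.5% of those above 0 but under 10% and 77.0% of those at 50% to 100%. Overlap on the same strand was at 5.48% against 5.71%, and on the opposite strand at 21.9% against 23.3%. For 13 of the 73, another gene at or above no drug with at least 50 net reads with DRB lay within 20 kb. Some pairs, such as Mt1 and Mt2, count from both sides. The share over all 4887 genes was not computed for this rule, and both genes of a pair were chosen as high, so the count only describes them. The widest ratios among such pairs were at Cables2, at 9.49 and 36.4 reads per kb, and Rbbp8nl, 4.15 kb apart on chromosome 2. Slc37a3 and Rab19, 3.50 kb apart on chromosome 6, were at 224.0% and 233.8%. Reads that run on from a neighbour cannot be told apart from a gene's own in these sums.

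Promoter composition varied little with the share left. In the 250 bases before to 50 after the start, the median CpG observed over expected was 0.793 for genes listed at 0 with DRB, 0.833 to 0.849 in the classes between, and 0.769 for genes at or above 100%, against 0.606 over all promoters. Split by that measure, the class medians of level with DRB lay between 18.9% and 19.7% of no drug. TATAAA in the last 60 bases, on either strand, was in 0.990% of promoters of genes listed at 0, 2.19% of those at 50% to 100% and 4.92%, or 3 of 61, of those at or above 100%. Over all promoters the share was 4.52%, and over the 3970 promoters of genes with at least 50 net reads it was 1.41%.

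**Figure D5:**
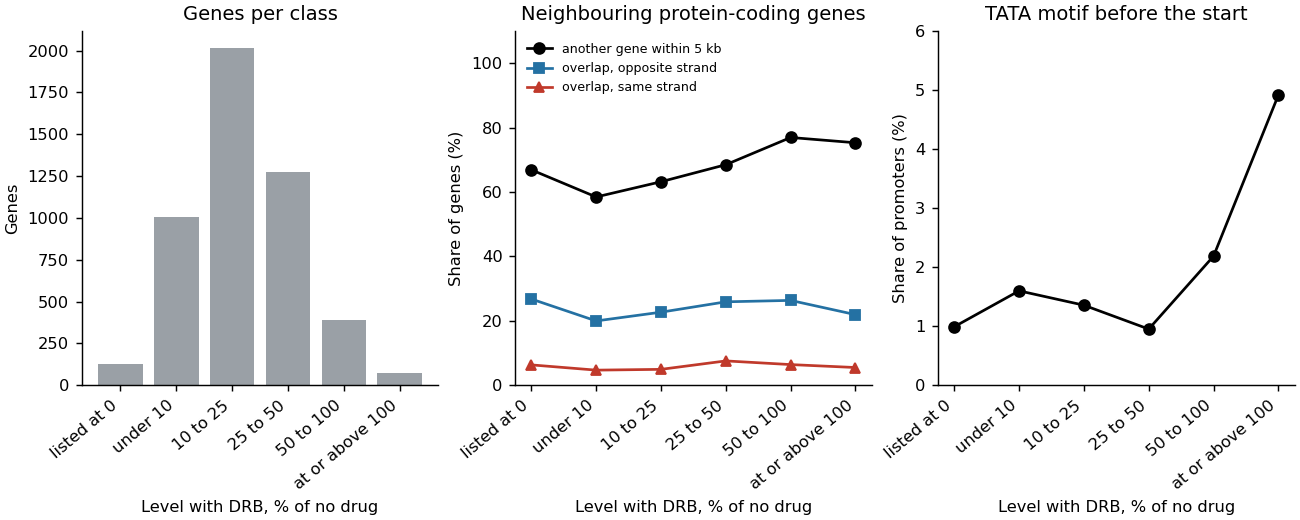
For the 4887 genes with at least 50 net reads without drug, by class of level with DRB as a percentage of no drug, the number of genes (bars), the share with a neighbouring or overlapping protein-coding gene, and the share of promoters that hold TATAAA in the 60 bases before the start. The class from 10% to 25% is the largest with 2015 genes, and the share with a neighbour within 5 kb runs from 58.5% to 77.0%.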

How the data were processed

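Per the labels' protocols, labelled and unlabelled RNA of treated and untreated cells was sequenced, and Bowtie and GRCm38/mm10 are the aligner and build in the submitters' processing notes. What the authors deposited is a signal per gene (reads per kb), 1 column per condition. How the authors pooled replicates, subtracted unlabelled RNA or used strand, and the depth of each sample, are nowhere stated in the labels or the table. Because replicates are not separate in the table, the planned limma test could not be run.

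Values are whole multiples of 1000 over gene length, so lengths were found from the values and accepted where they equalled the GENCODE M21 span (5061 compared genes) or lay within 20% of it (3151). Net reads were value times length, whole within 0.01 reads by construction. Genes above 1 in either column were compared on log2(value + 1), with a size rule of 1 and no rescaling. Ratios carry exact (Clopper-Pearson) 95% Poisson intervals, which leave out replicate spread and background subtraction. The 50 gene lists and the members were chosen with earlier results of these data known. Genes named are the extremes of ratio, net reads and level, up to 4 per list and a fixed set of 12, with some not printed. On simulated counts with Poisson noise alone, large changes planted in well-covered genes were recovered. Recovery of smaller changes or of changes in weak genes was not tried, and background subtraction and replicate spread were not simulated. Python 3.11.15, numpy 2.4.6, pandas 2.3.3 and scipy 1.17.1 were used.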

Additional observations from a re-analysis of the deposited data

How the results depend on the processing

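No paired analysis was possible because the table has 1 column per condition, and for the same reason no replicate could be left out. The median difference over all genes was below 0 in every setting without rescaling, while counts and sizes moved. With a pseudocount of 0.1 the median log2 difference was -2.14, and with 10 it was -0.303, with 644 genes lower and 25 higher. With a minimum of 5 reads per kb there were 2662 lower and 66 higher, the median was -1.775 and the median share left 21.5%. With any value above 0 these medians were -0.59 and 21.4%. With the minimum of 1 applied to the column without drug alone, 41 genes were higher and the median was -1.31. With at least 20 net reads in either column 44 were higher and the median was -1.35. Scaling to equal medians gave 1762 lower, 1383 higher, a median of -0.11 and 89.6%, and scaling to equal quantiles 895, 902, -0.026 and 95.8%. Both scalings set the columns to a common centre, so the sign of these medians cannot show a fall or a rise. Equal medians put 26 of 47 list medians above no change, among them histones at 373.5%, pluripotency factors at 169.6% and cytosolic ribosomal proteins at 119.3%.

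For gene length, the median over genes in place of summed net reads, from the shortest class to the longest, was 27.02%, 21.7%, 21.95%, 21.5%, 19.1%, 16.7%, 16.8% and 26.05%. Without the gene with most net reads with DRB, the class of 20 to 50 kb gave 25.9%, 50 to 100 kb 22.4%, 100 to 200 kb 22.2% and over 200 kb 25.05%. With only lengths equal to the annotated span, the class of 2 to 5 kb gave 26.5%, 10 to 20 kb 27.4%, 50 to 100 kb 23.7%, 100 to 200 kb 26.05% and over 200 kb 28.99%. The class over 200 kb gave 24.6% without Gm20388 and Fgfr2, an alternative chosen after seeing the data. The cause of these shifts was not tested.

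Among the gene lists, the sum moved beyond its counting interval in 29 lists without the gene with most net reads with DRB, in 33 with only exact spans and in 39 when the median over genes was used. One gene moved it by over 1.5 times for tubulins (Tubb5), for DNA methylation and Tet genes (Tet1), for Id, BMP and Nodal genes (Smad7), for Trim28 and its partners (Trim28), and for 3 lists of few reads. Developmental targets went from 18.7% to 36.4% without Pax6, fibroblast markers from 53.8% to 192.3% without Fn1, and olfactory receptors from 80% to 50%. Reads limit short and weak genes most, and spread between replicates is not in any interval.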
